A study of Mus musculus with 12 samples.

Results

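GR-deficient renal cortex was compared with control renal cortex 24 hours after glycerol-induced acute kidney injury (AKI), on 3 arrays of each genotype out of 12 arrays in the series. Members were taken by their labels, as the arrays titled GR KO with AKI and those titled control with AKI. Control mice were nr3c1 flox/flox, meaning that recombination sites flank a part of both copies of Nr3c1, which encodes the glucocorticoid receptor (GR), and that the gene was otherwise left in place. GR-deficient mice were Pax8-Cre;nr3c1 flox/flox, in which a recombinase driven by the Pax8 promoter, active in the epithelium of the renal tubule, acts on the same floxed alleles. The floxed alleles were thus common to all groups, and no group carried Pax8-Cre alone, so an effect of Pax8-Cre itself cannot be told apart from the loss of the receptor. Both groups had received glycerol into muscle, which breaks down muscle fibres and loads the kidney with myoglobin. A separate, uninjected cohort gave 3 healthy arrays of each genotype, which show where the injured comparison differs from the uninjured one. The healthy arrays also enter the choice of probe sets and the shared estimate of spread behind the p-values of the injured comparison. Age, sex and strain background were not given in the labels used here. The labels number the replicates of each group without saying that they were separate animals, so every p-value here rests on variation from sample to sample that could be technical alone. Total RNA of whole cortex was amplified and hybridised to Affymetrix arrays, and 19938 genes were read, each from the probe set with exactly 1 gene symbol that had the highest mean over the 12 arrays, out of 35556 probe sets. In bulk cortex, fewer cells of a type and less RNA per cell cannot be told apart.

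The glucocorticoid receptor is a nuclear receptor that stays in the cytoplasm bound to chaperones until cortisol, or corticosterone in mice, binds it. It then enters the nucleus, where it raises the transcription of genes with glucocorticoid response elements and restrains inflammatory genes, in part by binding to the factors AP-1 and NF-kappaB. In the kidney it is present in tubular, vascular, glomerular and immune cells, and hormone levels rise under stress such as tissue injury. The tubule itself responds to injury by losing transporters and metabolic enzymes of the mature segment and by gaining a set of injury genes, among them kidney injury molecule 1 and keratins.

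The arrays were alike in level, with medians between 7.001 and 7.092 on the log2 scale and correlations within a group from 0.984 to 0.996. Control AKI replicate 1 spanned a narrower range of expression than the rest (SD 1.88 over genes, the other 11 arrays at 1.96 to 2.06), and it stood apart on the second principal component. Leaving it out gave 3162 genes below the adjusted p used here in place of 3460, and 2788 genes were shared by both calculations, all with the same sign. The tissue label was checked on Slc34a1, the phosphate transporter of the proximal tubule, with means of 13.91 in healthy control, 13.75 in healthy GR-deficient, 12.38 in control AKI and 13.50 in GR-deficient AKI, and on the adrenal enzyme Cyp11b1, with means of 5.45 in healthy control, 5.04 in healthy GR-deficient, 5.12 in control AKI and 5.13 in GR-deficient AKI. The Y-linked gene Kdm5d was lower on the control AKI arrays than on the GR-deficient AKI arrays (6.02, 6.11 and 6.04 against 6.42, 6.66 and 6.86). Its healthy means were 6.67 in control and 6.77 in GR-deficient mice. Xist had means of 4.17 in control AKI and 4.28 in GR-deficient AKI, and its difference of 0.11 ± 0.13 did not pass. The Y-linked genes Uty and Eif2s3y had means of 7.57 and 8.20 in control AKI, and their differences of 0.52 and 0.47 did not pass. What the difference in Kdm5d contributes to the results was not tested.

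The targeted gene was checked first. After injury Nr3c1 read 8.82, 8.89 and 8.86 on the control AKI arrays and 8.10, 7.96 and 7.87 on the GR-deficient AKI arrays on the log2 scale, so the genotypes did not overlap. The difference was -0.88 ± 0.10 (SE, limma, n = 3 per group, adjusted p = 2.69e-05). In healthy mice the means were 9.55 and 8.17, a difference of -1.38, so the genotypes lay closer together after injury, by 0.50 (limma adjusted p = 0.03). Which exons the probes cover was not analysed here, and cortex also holds cells that do not express Pax8-Cre. The tubular marker Pax8 itself read 10.90, 10.93 and 10.88 on the control AKI arrays and 10.96, 11.03 and 10.91 on the GR-deficient AKI arrays, and its difference of 0.065 ± 0.13 did not pass.

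Loss of the receptor was accompanied by a broad difference in the injured cortex. An adjusted p under 0.05 in limma was reached by 3460 of 19938 genes, or 17.4%. In GR-deficient cortex 1997 of them were higher (10.0% of genes tested) and 1463 were lower (7.34%). A difference of at least 2-fold, 1 on the log2 scale, was found for 568 of them, 381 higher and 187 lower. The median over all genes was -0.04. Among genes listed by function, 18 of 22 tubular injury markers and 17 of 21 AP-1 and immediate early factors were lower, and 27 of 29 transport genes of the proximal tubule were higher.

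**Figure D1:**
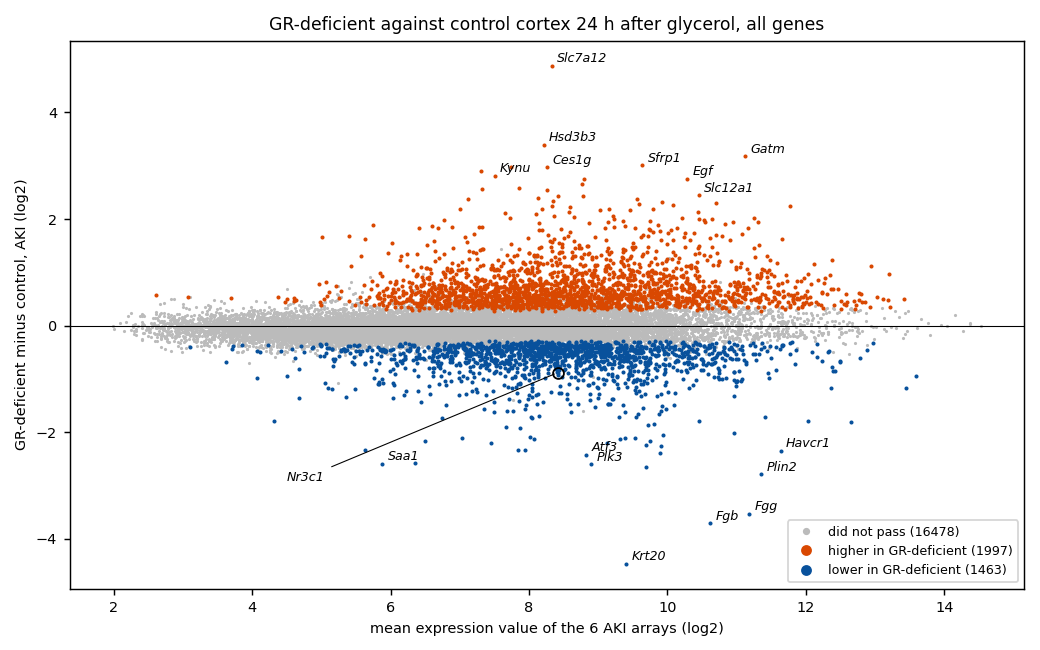
Each point is a gene, with its mean expression value over the 6 AKI arrays on the horizontal axis (log2) and the GR-deficient minus control difference in AKI on the vertical axis (log2); orange points were higher and blue points lower in GR-deficient cortex at an adjusted p of 0.05. The 1997 higher genes outnumber the 1463 lower ones, and the largest difference of each sign was that of Slc7a12 (4.88) and Krt20 (-4.46).

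The 15 largest decreases, taken among genes whose AKI groups did not overlap, were led by an injury keratin and the fibrinogen chains. Krt20 encodes a keratin of simple epithelia that is made by injured tubule. It read 11.88, 11.51 and 11.53 on the control AKI arrays and 7.47, 7.46 and 6.60 on the GR-deficient AKI arrays, so the groups were separated by more than 4 on the log2 scale with no overlap, and the difference was -4.46 ± 0.28 (limma adjusted p = 3.26e-07). Fgb, Fgg and Fga encode the chains of fibrinogen, the clotting protein that injured tubule can also make. Fgb read 12.29, 12.66 and 12.47 on the control AKI arrays and 7.89, 9.86 and 8.55 on the GR-deficient AKI arrays, a difference of -3.71 ± 0.39. Fgg read 12.72, 13.08 and 13.04 on the control AKI arrays and 8.25, 11.09 and 8.91 on the GR-deficient AKI arrays, a difference of -3.53 ± 0.53, and Fga differed by -2.66 ± 0.32. GR-deficient replicate 2 was the highest of its group for all 3 chains. For each chain it lay below every control array, as the rule of no overlap requires. Adjusted p-values of the chains ran from 1.86e-05 to 0.000333 in limma.

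Havcr1, which encodes kidney injury molecule 1, a receptor for dying cells on the injured proximal tubule, read 12.73, 12.92 and 12.78 on the control AKI arrays and 10.75, 11.11 and 9.53 on the GR-deficient AKI arrays. All GR-deficient arrays were below the control arrays, as the rule of no overlap requires, with replicate 3 lowest. The difference was -2.35 ± 0.46 (limma adjusted p = 0.00246). Its healthy means were 6.69 and 6.96, so the gene stood well above the healthy level in both injured groups. Plin2, the coat protein of lipid droplets, read 12.68, 12.85 and 12.72 on the control AKI arrays and 10.41, 9.77 and 9.70 on the GR-deficient AKI arrays against healthy means of 9.53 and 9.37, and differed by -2.79 ± 0.31. Sprr2f, a small proline-rich protein of stressed epithelia, differed by -2.57 ± 0.22. Its GR-deficient values of 4.97, 5.53 and 4.71 lay near the healthy means of 4.71 and 4.49.

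The set also held stress genes and secreted proteins. Atf3, a stress-induced transcription factor, read 10.66, 9.86 and 9.59 on the control AKI arrays and 8.15, 7.98 and 6.73 on the GR-deficient AKI arrays and differed by -2.42 ± 0.31 (limma adjusted p = 7.62e-05). Plk3, a polo-like kinase of the stress response, differed by -2.60 ± 0.26, and Hspa1a, the inducible chaperone HSP70, by -2.39 ± 0.22. Slc7a11, the cystine importer that feeds glutathione synthesis, read 9.82, 8.98 and 8.52 on the control AKI arrays and 7.78, 6.44 and 6.09 on the GR-deficient AKI arrays and differed by -2.34 ± 0.35. Ttpa, the vitamin E transfer protein, read 8.37, 9.29 and 9.36 on the control AKI arrays and 7.05, 6.59 and 6.36 on the GR-deficient AKI arrays and differed by -2.34 ± 0.25. The GR-deficient AKI levels were below the control healthy mean of 7.33 and near the GR-deficient healthy mean of 6.39. Of secreted proteins, the acute phase protein Saa1 read 6.29, 7.21 and 8.01 on the control AKI arrays and 4.51, 4.40 and 4.84 on the GR-deficient AKI arrays and differed by -2.59 ± 0.35. Lrg1, a glycoprotein of the acute phase, differed by -2.25 ± 0.28, and Chil3, a chitinase-like protein of myeloid cells, by -2.33 ± 0.32. The smallest of these 15 adjusted p-values was 3.26e-07 and the largest 0.00246 (Havcr1).

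**Figure D2:**
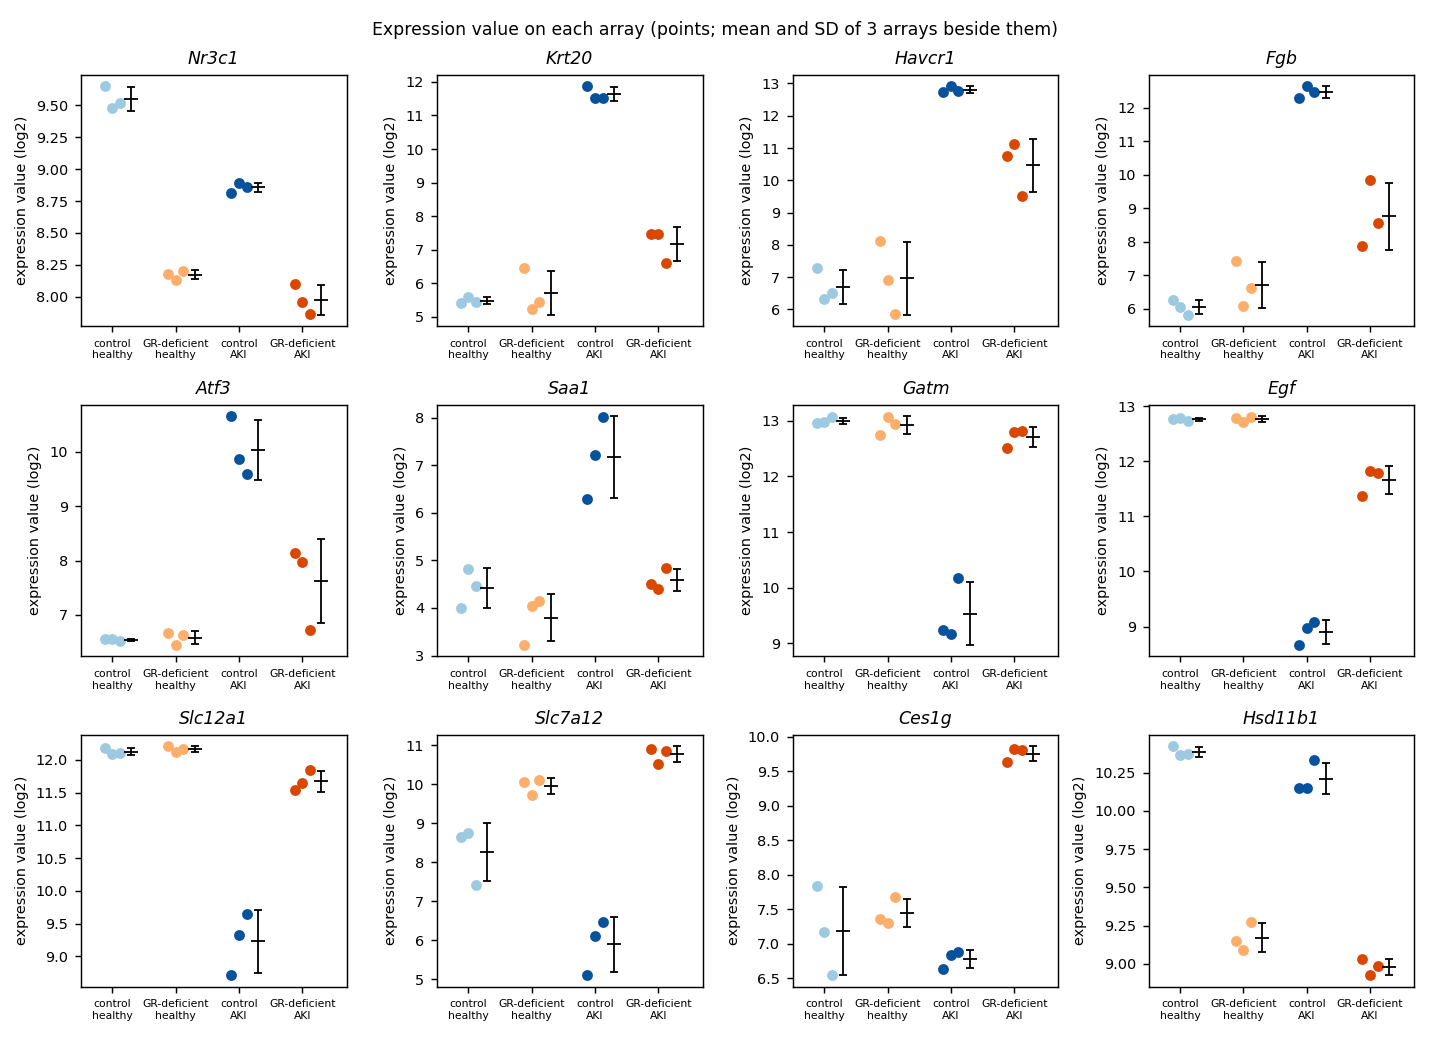
Expression values (log2) of 12 genes on each of the 12 arrays, by group, with the mean and SD of the 3 arrays of a group beside the points; each panel has its own vertical scale, which does not start at 0. Krt20, Havcr1, Fgb, Atf3 and Saa1 are lower and Gatm, Egf, Slc12a1, Slc7a12 and Ces1g higher on every GR-deficient AKI array than on any control AKI array, whereas Nr3c1 and Hsd11b1 are lower with and without injury.

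The 15 largest increases were taken by the same rule, and the largest was that of Slc7a12, an amino acid transporter of the tubule. It read 5.10, 6.10 and 6.47 on the control AKI arrays and 10.91, 10.53 and 10.87 on the GR-deficient AKI arrays, against healthy means of 8.26 and 9.96 in control and GR-deficient mice. The difference in AKI was 4.88 ± 0.34 (limma adjusted p = 6.49e-07), and the injured control arrays lay below every other array of the series. Hsd3b3 and Hsd3b2 belong to the 3-beta-hydroxysteroid dehydrogenases, enzymes of steroid metabolism. Hsd3b3 read 5.96, 6.36 and 7.23 on the control AKI arrays and 9.81, 9.93 and 9.99 on the GR-deficient AKI arrays and differed by 3.39 ± 0.22, and Hsd3b2 differed by 2.97 ± 0.22. The sequences of this family are close, and whether their probe sets read each other's transcripts was not tested.

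Enzymes and transporters followed. Gatm, the first enzyme of creatine synthesis, read 9.24, 9.17 and 10.18 on the control AKI arrays and 12.51, 12.81 and 12.82 on the GR-deficient AKI arrays and differed by 3.18 ± 0.21 (limma adjusted p = 4.23e-07). The GR-deficient values stood close to the healthy means of 13.000 and 12.92. Kynu and Acmsd, which break down tryptophan by the kynurenine route, differed by 2.81 ± 0.29 and 2.67 ± 0.24. Kynu read 8.79, 8.81 and 9.12 on the GR-deficient AKI arrays, above its healthy means of 6.82 and 7.37. Sucnr1, the succinate receptor, read 5.62, 5.65 and 6.30 on the control AKI arrays and 8.75, 8.78 and 8.77 on the GR-deficient AKI arrays and differed by 2.91 ± 0.20. Differences for the organic anion carrier Slco4c1, the bile acid transporter Slc10a2 and the acetyltransferase Nat8f1 were 2.56 ± 0.28, 2.44 ± 0.30 and 2.54 ± 0.15. Fabp7, a fatty acid binding protein, differed by 2.58 ± 0.20.

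Egf, Slc12a1, Sfrp1 and Ces1g completed the set. Egf, the growth factor precursor made in the thick ascending limb and distal convoluted tubule, read 8.67, 8.97 and 9.09 on the control AKI arrays and 11.37, 11.83 and 11.79 on the GR-deficient AKI arrays and differed by 2.75 ± 0.13 (limma adjusted p = 1.06e-07). Both injured groups were below the healthy means of 12.77 and 12.77. Slc12a1, the NKCC2 salt cotransporter of the thick ascending limb, read 8.71, 9.32 and 9.65 on the control AKI arrays and 11.53, 11.64 and 11.85 on the GR-deficient AKI arrays and differed by 2.44 ± 0.18. Sfrp1, a secreted antagonist of Wnt ligands, differed by 3.01 ± 0.28. Ces1g, a carboxylesterase, read 6.63, 6.83 and 6.88 on the control AKI arrays and 9.63, 9.82 and 9.82 on the GR-deficient AKI arrays and differed by 2.97 ± 0.23. Its injured control values were near the healthy means of 7.19 and 7.45, and the GR-deficient AKI arrays lay above all 9 other arrays.

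**Figure D3:**
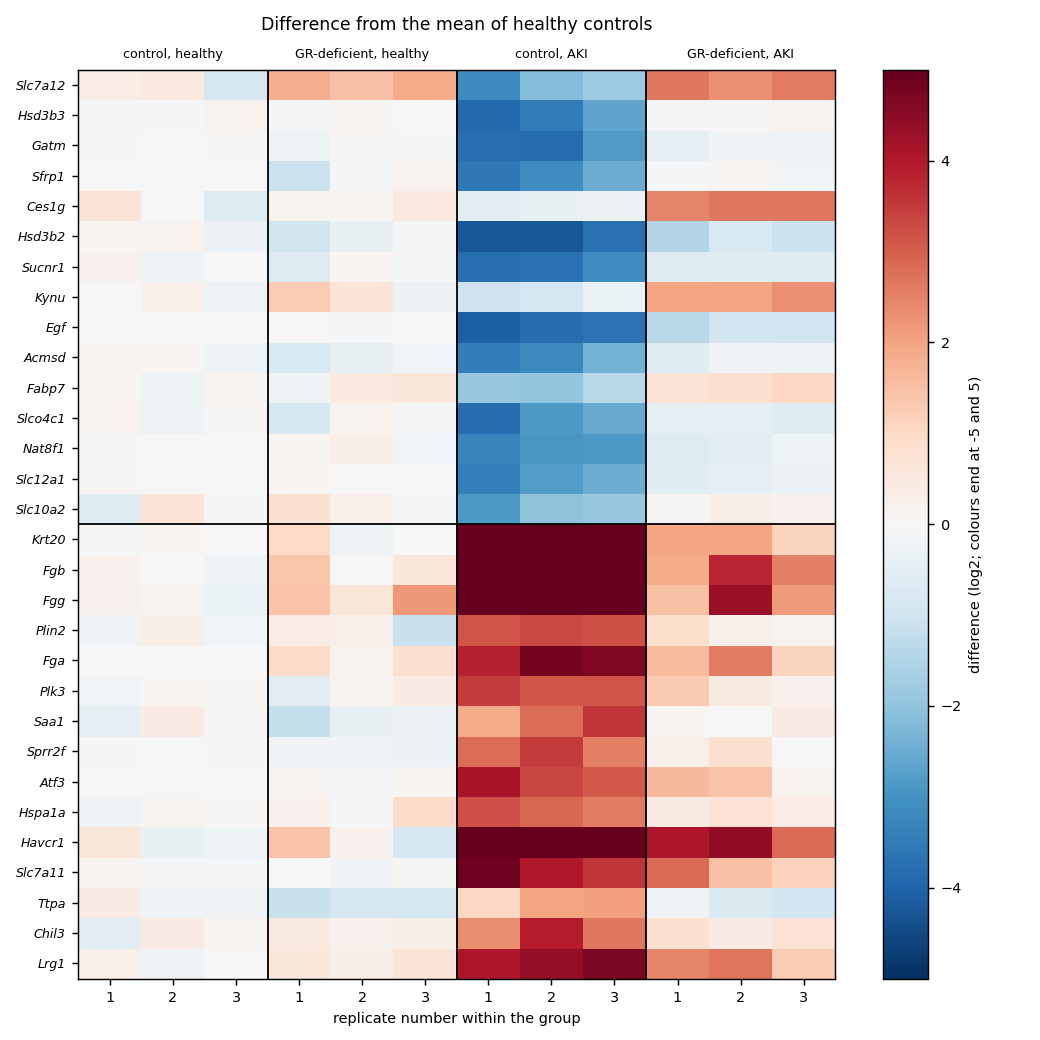
Difference of each array from the mean of the 3 healthy control arrays (log2, colours end at -5 and 5) for the 15 largest increases (upper block) and the 15 largest decreases (lower block), with arrays in columns by group and replicate number. The control AKI columns are the most strongly coloured for most genes, and the GR-deficient AKI columns are paler; Ces1g and Kynu instead lie nearer 0 in control AKI than in GR-deficient AKI, and Slc7a12 lies about as far below 0 in control AKI as above it in GR-deficient AKI.

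The levels were also set against the 6 healthy arrays, gene by gene. Of the 1463 lower genes, 1316 had all 3 control AKI arrays outside the range of the 6 healthy arrays, and in 258 of these (19.6%) all 3 GR-deficient AKI arrays lay within the healthy range. Of the 1997 higher genes, 1590 had control AKI arrays outside the healthy range, and in 534 (33.6%) the GR-deficient arrays lay within it. Over all 19938 genes, 5600 had control AKI arrays outside the healthy range, and the share with GR-deficient arrays within it was 21.2%. The GR-deficient AKI arrays also lay outside the healthy range for 494 of the 1316 lower genes and 440 of the 1590 higher genes. The same held for 2013 of the 5600. In 182 of the higher genes (9.11%, against 1.47% of all genes) every GR-deficient AKI array exceeded all other 9 arrays, and in 43 of the lower ones (2.94%, against 0.707%) every one lay below them. Being called in this contrast makes such an extreme position more likely, so these shares describe the genes and test nothing. After their values were seen, a few were picked out by the gap to the nearest array. Maoa, the monoamine oxidase A gene, read 7.16, 7.30 and 7.63 on the control AKI arrays and 8.64, 8.48 and 8.44 on the GR-deficient AKI arrays, against healthy means of 6.50 and 6.96. Akr1c20, an aldo-keto reductase, read 5.39, 5.35 and 5.12 on the control AKI arrays and 6.81, 6.56 and 6.57 on the GR-deficient AKI arrays against 5.50 and 5.79, and the glucose transporter Slc5a1 read 8.30, 8.66 and 9.03 on the control AKI arrays and 9.93, 10.21 and 9.99 on the GR-deficient AKI arrays against 8.75 and 9.01. On the lower side, Sult1d1, a sulfotransferase, read 11.74, 12.07 and 12.08 on the control AKI arrays and 10.82, 11.13 and 10.97 on the GR-deficient AKI arrays against healthy means of 12.44 and 12.16.

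These differences were also described over the members of 35 gene lists. The lists were chosen with earlier results of these data known, so their counts and medians describe the members and test nothing. Of 614 listed genes measured, 310 passed, as did 17.4% of all genes. Each list is described by its counts and median, to be read beside 10.0% higher, 7.34% lower and a median of -0.04 over all genes. Members were named for the smallest p in a list, and the further members given with a value were picked after their values were seen.

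Among corticosteroid receptors and steroid handling enzymes, 6 of 13 measured genes were higher and 3 lower (median 0.31). Hsd11b1, which regenerates active corticosterone inside cells, read 10.15, 10.15 and 10.33 on the control AKI arrays and 9.03, 8.93 and 8.99 on the GR-deficient AKI arrays and differed by -1.23 ± 0.10 (limma adjusted p = 1.87e-06). The GR-deficient arrays were tightly grouped below the control arrays. Hsd11b2, which inactivates corticosterone in the distal nephron and so protects the mineralocorticoid receptor, read 8.98, 8.52 and 8.95 on the control AKI arrays and 9.85, 9.91 and 10.06 on the GR-deficient AKI arrays and differed by 1.12 ± 0.13 in the opposite direction. Nr3c2, the mineralocorticoid receptor itself, read 6.49, 6.75 and 6.85 on the control AKI arrays and 7.22, 7.32 and 7.24 on the GR-deficient AKI arrays and differed by 0.56 ± 0.12, below the healthy means of 7.44 and 7.45 in both injured groups. Akr1c18, which inactivates progesterone, read 7.08, 7.43 and 8.41 on the control AKI arrays and 6.40, 6.62 and 6.02 on the GR-deficient AKI arrays and differed by -1.29 ± 0.26, and its healthy control mean was 10.05. Fkbp4, an immunophilin of the receptor complex, differed by 0.46 ± 0.11.

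Genes listed as glucocorticoid receptor targets did not move one way. Of 30, 17 were lower, 6 higher and 7 did not pass, with a median of -0.57, and without control AKI replicate 2 the counts were 13 lower and 3 higher. Fkbp5, the immunophilin gene often used as a readout of the receptor, read 9.71, 10.34 and 10.55 on the control AKI arrays and 8.80, 8.44 and 8.49 on the GR-deficient AKI arrays and differed by -1.62 ± 0.26 (limma adjusted p = 0.00054). All GR-deficient arrays lay below its healthy means of 9.46 and 9.24. Zbtb16, a zinc finger factor, read 8.20, 8.67 and 9.07 on the control AKI arrays and 7.39, 7.48 and 7.16 on the GR-deficient AKI arrays and differed by -1.30 ± 0.23. Pdk4, the kinase that restrains glucose oxidation, read 11.06, 11.68 and 11.33 on the control AKI arrays and 10.15, 9.46 and 9.07 on the GR-deficient AKI arrays and differed by -1.79 ± 0.25, with both injured groups above the healthy means of 7.78 and 7.87. Map3k6, a stress kinase, differed by -1.48 ± 0.13, the metallothioneins Mt2 and Mt1 by -1.18 ± 0.17 and -0.95 ± 0.14, and the clock gene Per1 by -0.67 ± 0.13. Several lower members also stand in other lists, namely Lcn2 (injury and neutrophils), Cebpd (C/EBP factors), Il1r2 (neutrophils), Pdk4 (fatty acid oxidation) and Per1 (clock).

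On the higher side of the target list stood Fam107a, an actin-associated stress gene, which read 7.49, 7.15 and 6.99 on the control AKI arrays and 9.44, 9.34 and 9.61 on the GR-deficient AKI arrays and differed by 2.25 ± 0.14 (limma adjusted p = 3.26e-07). Usp2, a deubiquitinase, read 8.14, 7.89 and 8.26 on the control AKI arrays and 9.61, 9.49 and 9.67 on the GR-deficient AKI arrays and differed by 1.49 ± 0.14. Klf15, Pck1, Scnn1a and Sesn1 were also higher, by 0.84, 0.98, 0.54 and 0.44. For each of Fam107a, Usp2, Klf15 and Pck1 the GR-deficient arrays lay nearer the healthy means than the control arrays did. Tsc22d3, which encodes the glucocorticoid-induced leucine zipper protein, read 7.05, 7.47 and 7.56 on the control AKI arrays and 7.54, 7.55 and 7.74 on the GR-deficient AKI arrays, and its difference of 0.25 ± 0.16 did not pass. Klf9 read 10.54, 10.57 and 10.64 on the control AKI arrays and 10.49, 10.56 and 10.43 on the GR-deficient AKI arrays with overlapping groups, a difference of -0.089 ± 0.14 that did not pass.

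Promoter windows from RefSeq (build GRCm38.p6), running from 250 bases before to 50 bases after a transcription start, were held for 15614 of the measured genes (19177 windows). The full glucocorticoid response element was searched as AGAACA and TGTTCT with 3 bases of any kind between them, a palindrome that covers both strands. It was found in 2 windows (0.0104%), those of Acnat2, an acyltransferase of peroxisomes, and Sgk1, the serum and glucocorticoid regulated kinase, and both genes were lower in GR-deficient cortex. They are shown because they were the only windows with the element, which stands in capitals. Acnat2 (chr4:49408102-49408401, minus strand) has its first base at position -102 from the start, and Sgk1 (chr10:21993640-21993939, plus strand) at -189.
Acnat2: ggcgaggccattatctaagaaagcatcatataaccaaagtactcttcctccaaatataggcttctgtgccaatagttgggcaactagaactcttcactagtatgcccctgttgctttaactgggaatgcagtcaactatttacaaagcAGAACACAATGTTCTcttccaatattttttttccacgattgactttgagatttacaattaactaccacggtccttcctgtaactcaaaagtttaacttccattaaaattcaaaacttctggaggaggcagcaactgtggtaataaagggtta
Sgk1: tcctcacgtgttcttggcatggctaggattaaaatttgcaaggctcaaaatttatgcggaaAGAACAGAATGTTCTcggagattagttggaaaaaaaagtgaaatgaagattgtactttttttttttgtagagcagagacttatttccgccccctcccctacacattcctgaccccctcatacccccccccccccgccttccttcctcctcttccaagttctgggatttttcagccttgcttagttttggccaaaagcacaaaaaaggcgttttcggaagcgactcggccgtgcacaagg
Sgk1 read 9.28, 9.47 and 9.39 on the control AKI arrays and 8.90, 8.54 and 9.08 on the GR-deficient AKI arrays and differed by -0.55 ± 0.16 (limma adjusted p = 0.0263). Acnat2 read 9.29, 9.67 and 9.91 on the control AKI arrays and 8.12, 8.84 and 8.83 on the GR-deficient AKI arrays and differed by -1.03 ± 0.28 (limma adjusted p = 0.0178), chosen after its values were seen. TGTTCT alone, which is part of the full element, was searched on both strands and stood in 15.5% of all windows, in 11.6% of windows of all genes that were lower and in 15.2% of those higher. For genes lower or higher by at least 2-fold the shares were 11.8% and 21.5%, so the share above that of all windows stood in the 2-fold higher genes and not in all higher genes. A match describes the letters of a window and is no binding site.

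Tubular injury markers were lower with few exceptions. Of 22 measured, 18 were lower, 1 was higher and 3 did not pass (median -0.997). Sox9, a transcription factor of regenerating tubule, read 9.15, 9.24 and 9.03 on the control AKI arrays and 7.17, 7.04 and 6.83 on the GR-deficient AKI arrays and differed by -2.12 ± 0.12 (limma adjusted p = 2.30e-07). Its GR-deficient values were close to the healthy means of 6.50 and 6.84. Fosl1, an AP-1 subunit, read 10.40, 10.29 and 9.98 on the control AKI arrays and 8.66, 7.84 and 7.60 on the GR-deficient AKI arrays and differed by -2.19 ± 0.22. Plaur, the urokinase receptor, differed by -2.13 ± 0.23, the adhesion receptor Cd44 by -1.03 ± 0.12, the TWEAK receptor Tnfrsf12a by -1.32 ± 0.21 and the protease inhibitor Timp1 by -1.46 ± 0.30. Lcn2, which encodes the iron-carrier binding protein NGAL, read 13.43, 13.62 and 13.62 on the control AKI arrays and 12.11, 12.03 and 11.08 on the GR-deficient AKI arrays, a difference of -1.82 ± 0.55 (adjusted p = 0.0326 in limma) between groups that both stood above the healthy means of 7.56 and 8.04. The exception was Vcam1, an adhesion molecule, which read 7.45, 7.44 and 7.73 on the control AKI arrays and 7.98, 8.24 and 7.81 on the GR-deficient AKI arrays and was higher by 0.47 ± 0.12, a call that was lost without control AKI replicate 2. Krt18, Itgb6 and Krt19 did not pass, at -0.59, 0.12 and 0.055.

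Keratins, annexins and cytoskeletal genes of injured epithelium followed, with 12 of 23 lower and 0 higher (median -0.55). Anxa3, an annexin, read 10.50, 10.39 and 10.30 on the control AKI arrays and 9.001, 8.79 and 8.45 on the GR-deficient AKI arrays and differed by -1.65 ± 0.16 (limma adjusted p = 7.54e-06). Actn1, an actin crosslinker, differed by -1.11 ± 0.12, Tpm4, a tropomyosin, by -0.87 ± 0.10, Anxa2 by -1.33 ± 0.17 and the intermediate filament gene Vim by -0.55 ± 0.11. The members that did not pass included Krt19 and Krt23 (0.055 and 0.08), whose arrays overlapped.

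Of fibrinogen, acute phase and complement genes, 8 of 23 were lower and 3 higher (median -0.29). Serpina3n, a serine protease inhibitor of the acute phase, read 8.18, 8.64 and 8.90 on the control AKI arrays and 7.08, 6.94 and 6.90 on the GR-deficient AKI arrays and differed by -1.60 ± 0.15 (limma adjusted p = 8.15e-06). Saa2 and Saa3 differed by -1.33 ± 0.16 and -1.08 ± 0.21, beside Saa1, whose sequence is close to theirs. The members that were higher were Pigr, the receptor that carries IgA across epithelium, complement factor B (Cfb) and complement factor I (Cfi), at 1.64 ± 0.15, 0.78 ± 0.11 and 0.94 ± 0.17. Haptoglobin (Hp), hemopexin (Hpx) and ceruloplasmin (Cp) did not pass, at -0.37, -0.40 and -0.024. The mean of the neutrophil marker list moved with these genes, from 6.37 to 6.60 on the control AKI arrays and from 5.80 to 5.97 on the GR-deficient AKI arrays, and its part in them was not tested.

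In the list of interleukin 6 family cytokines, STAT3 signalling and C/EBP factors, 11 of 20 were lower and 1 higher (median -0.59). Clcf1, a cytokine that signals through gp130, read 9.18, 8.82 and 8.75 on the control AKI arrays and 7.42, 7.09 and 7.04 on the GR-deficient AKI arrays and differed by -1.73 ± 0.13 (limma adjusted p = 1.46e-06). Lif, another gp130 cytokine, read 7.19, 7.47 and 7.55 on the control AKI arrays and 6.57, 6.37 and 6.14 on the GR-deficient AKI arrays and differed by -1.04 ± 0.13. Il6 read 4.76, 6.03 and 5.25 on the control AKI arrays and 4.39, 3.89 and 3.71 on the GR-deficient AKI arrays, with a spread of more than 1 among control arrays, and differed by -1.35 ± 0.25. Among receptors and signal carriers, Osmr differed by -0.92 ± 0.20, Il6ra by -0.51 ± 0.10 and Stat3 by -0.87 ± 0.19, whereas the shared receptor Il6st (-0.26) and the kinase Jak2 (0.032) did not pass. Socs3, the feedback inhibitor and a target of STAT3, read 9.30, 9.76 and 9.24 on the control AKI arrays and 8.41, 8.10 and 7.42 on the GR-deficient AKI arrays and differed by -1.46 ± 0.21. Of the C/EBP factors, Cebpb and Cebpd were lower (-1.17 ± 0.18 and -1.09 ± 0.25) and Cebpa, a factor of differentiated cells, was higher (0.52 ± 0.15). The higher call of Cebpa was lost after quantile normalization and without control AKI replicate 2.

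AP-1 subunits and other immediate early factors were lower in 17 of 21 cases and higher in 0 (median -0.92). Klf6 read 10.71, 10.87 and 10.54 on the control AKI arrays and 9.36, 9.22 and 8.56 on the GR-deficient AKI arrays and differed by -1.66 ± 0.18 (limma adjusted p = 2.64e-05). Jun, Junb and Fos differed by -1.21 ± 0.19, -1.09 ± 0.18 and -0.77 ± 0.14, so both partners of the classical AP-1 dimer were lower. Egr1 read 8.87, 9.06 and 8.83 on the control AKI arrays and 8.35, 7.44 and 6.69 on the GR-deficient AKI arrays, a wide range in GR-deficient cortex with replicate 3 lowest, and differed by -1.43 ± 0.28. Nr4a1, an orphan nuclear receptor, differed by -1.01 ± 0.12, Myc by -1.86 ± 0.32 and Maff, a small MAF factor, by -1.44 ± 0.19. The 4 that did not pass were Fosb, Jund, Ier3 and Dusp6, at -0.46, -0.34, -0.43 and -0.20.

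Other motifs were counted in the promoter windows of the genes that differed. The AP-1 motif TGANTCA stood in 6.9% of all windows, in 8.33% of windows of all lower genes and 5.52% of all higher genes, and in 14.6% and 6.06% of windows of genes lower and higher by at least 2-fold. For the NRF2 motif TGACNNNGC the shares in the same order were 13.2%, 16.1%, 13.1%, 21.3% and 13.8%. For the STAT motif TTCNNNGAA they were 7.66%, 7.66%, 6.62%, 7.87% and 6.06%, and for CCAAT 37.4%, 32.5%, 39.4%, 37.6% and 40.2%. Both strands were searched, TGACTCA followed by GC matches both the AP-1 and the NRF2 motif, and these shares are descriptions with no test. Of the 15 largest decreases 14 had a window. Of their 16 windows, 3 held the AP-1 motif, 4 the STAT motif and 3 the NRF2 motif. From these, 3 examples are shown with the motif in capitals, since Fgb, Fga and Krt20 were among the genes that differed most. The Fgb stretch (chr3:83050015-83050051, minus strand) holds the AP-1 motif, that of Fga (chr3:83025904-83025942, plus strand) the STAT motif and that of Krt20 (chr11:99438193-99438231, minus strand) the NRF2 motif.
Fgb: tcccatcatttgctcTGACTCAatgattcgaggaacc
Fga: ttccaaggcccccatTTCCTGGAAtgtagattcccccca
Krt20: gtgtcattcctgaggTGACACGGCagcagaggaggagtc
The first base of the motif lies at position -173, -234 and -63 from the start of Fgb, Fga and Krt20.

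Genes of the heme and antioxidant response gave more lower than higher calls. Of 20, 7 were lower and 2 higher (median -0.16, with -0.26 after quantile normalization and -0.33 after cyclic loess, where 9 were lower). Akr1b8, an aldo-keto reductase, read 10.67, 10.99 and 10.77 on the control AKI arrays and 8.88, 8.85 and 8.003 on the GR-deficient AKI arrays and differed by -2.23 ± 0.21 (limma adjusted p = 6.66e-06). Hmox1, heme oxygenase 1, which degrades the heme that myoglobin brings, read 12.99, 12.96 and 12.84 on the control AKI arrays and 11.66, 11.11 and 10.66 on the GR-deficient AKI arrays and differed by -1.79 ± 0.21. Srxn1, sulfiredoxin, differed by -1.72 ± 0.19 and Txnrd1, thioredoxin reductase, by -0.999 ± 0.15. Nqo1, a quinone reductase that is also a textbook target of NRF2, read 10.94, 11.09 and 11.12 on the control AKI arrays and 11.13, 10.80 and 10.83 on the GR-deficient AKI arrays, above healthy means of 9.27 and 9.26 in both groups, and its difference of -0.13 ± 0.13 did not pass. The ferritin chains Fth1 and Ftl1 did not pass either (-0.09 and -0.047). Higher were Gsta4, a glutathione transferase (0.69 ± 0.14), and the efflux pump Abcc4 (0.42 ± 0.12), and 1 member alone was higher without control AKI replicate 1 or after cyclic loess normalization.

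Chaperone and integrated stress genes were lower as well. Of heat shock chaperones 7 of 13 were lower and 0 higher (median -0.60), among them Hspb1, a small heat shock protein (-2.01 ± 0.24), its partner Bag3 (-1.14 ± 0.16) and the lens and muscle chaperone Cryab (-0.995 ± 0.17). The mitochondrial chaperones Hspd1 and Hspe1 and the constitutive Hspa8 did not pass (0.0094, 0.046 and -0.066). Of unfolded protein and integrated stress response genes 13 of 23 were lower and 2 higher (median -0.68). Ppp1r15a, the phosphatase subunit that ends the stress response, read 9.19, 8.93 and 8.53 on the control AKI arrays and 7.57, 7.09 and 6.87 on the GR-deficient AKI arrays and differed by -1.70 ± 0.19 (limma adjusted p = 2.45e-05). Atf4, the central factor of this response, read 10.12, 10.13 and 9.83 on the control AKI arrays and 9.17, 8.96 and 8.88 on the GR-deficient AKI arrays and differed by -1.02 ± 0.12, and Ddit3, which encodes CHOP, differed by -1.38 ± 0.19. The amino acid enzymes Asns and Psat1 and the folate enzyme Mthfd2, which are targets of ATF4, were lower, with differences of -1.04, -1.28 and -1.26. Hspa5, the chaperone of the endoplasmic reticulum, and the factor Xbp1 did not pass (-0.53 and 0.018).

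Growth arrest and cell death genes were mixed. Growth arrest genes and p53 targets were lower in 9 of 17 cases and higher in 1 (median -0.54), with Btg2 (-1.25 ± 0.14), Gadd45a (-1.26 ± 0.19) and Eda2r (-1.09 ± 0.18) beside Plk3. The higher member, Sesn1, lost its call without control AKI replicate 1. Mdm2, Ccng1 and Bbc3 did not pass (-0.33, 0.18 and -0.17). Of regulated cell death genes 6 of 23 were lower, 3 higher and 14 did not pass (median -0.0044, and 0.0070 after cyclic loess normalization), and without control AKI replicate 2 the counts were 4 and 1. Mlkl, the executor of necroptosis, read 8.61, 8.85 and 8.62 on the control AKI arrays and 7.60, 7.40 and 6.65 on the GR-deficient AKI arrays and differed by -1.48 ± 0.19 (limma adjusted p = 9.23e-05), whereas its activator Ripk3 did not pass (-0.16). Acsl4, which makes membranes prone to ferroptosis, differed by -0.82 ± 0.11, and Gpx4, which protects from it, was higher by 0.42 ± 0.12. Dpep1, a dipeptidase of the brush border, read 8.81, 8.78 and 8.89 on the control AKI arrays and 9.94, 10.16 and 10.29 on the GR-deficient AKI arrays and was higher by 1.31 ± 0.11.

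**Figure D4:**
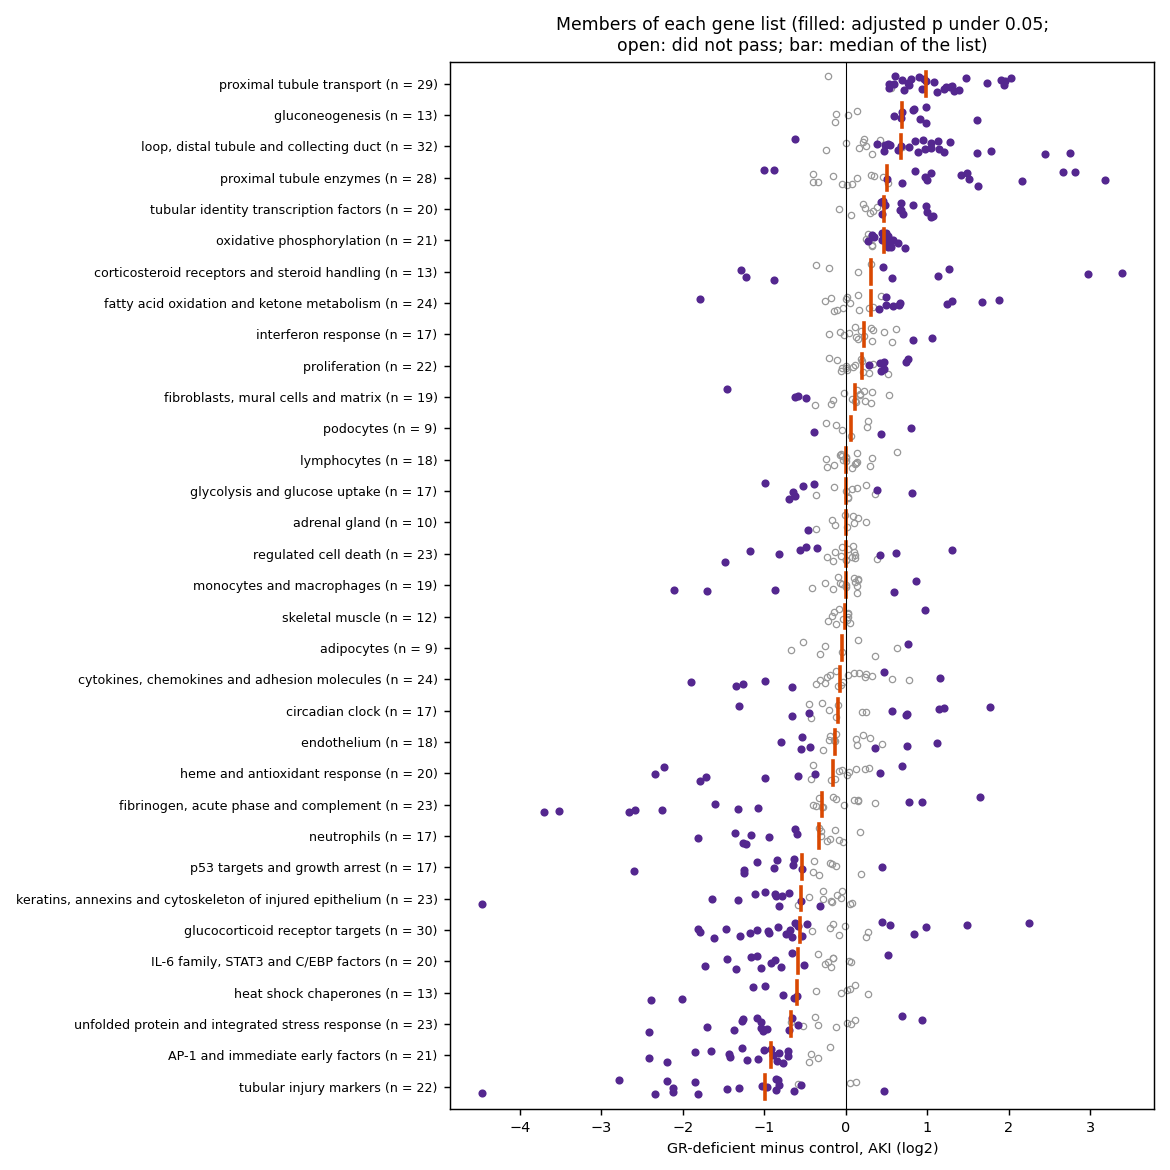
GR-deficient minus control difference in AKI (log2, horizontal axis) for each measured member of 33 gene lists, ordered by the median (orange bar); filled points passed an adjusted p of 0.05 and open points did not. Tubular injury markers (median -0.997) and AP-1 factors (median -0.92) lie at one end and proximal tubule transport genes (median 0.98) at the other.

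Transport genes of the proximal tubule were higher almost throughout. Of 29, 27 were higher, 0 lower and 2 did not pass (median 0.98), and 23 were higher without control AKI replicate 1 and 22 without control AKI replicate 2. Aqp1, the water channel, read 10.40, 10.68 and 10.77 on the control AKI arrays and 11.77, 11.88 and 12.06 on the GR-deficient AKI arrays and differed by 1.28 ± 0.12 (limma adjusted p = 6.13e-06). Slc22a8, the organic anion transporter OAT3, read 10.20, 10.09 and 10.75 on the control AKI arrays and 12.19, 12.34 and 12.33 on the GR-deficient AKI arrays and differed by 1.94 ± 0.18, reaching the healthy means of 12.28 and 12.21. Slc34a1, the phosphate transporter NaPi-IIa, read 12.42, 12.29 and 12.43 on the control AKI arrays and 13.36, 13.62 and 13.54 on the GR-deficient AKI arrays and differed by 1.12 ± 0.10. The cystine and aspartate carrier Slc7a13 and the dicarboxylate carrier Slc13a3 differed by 1.91 ± 0.18 and 2.02 ± 0.20, and the endocytic receptors Lrp2 and Cubn by 1.23 ± 0.12 and 1.31 ± 0.16. Slc5a2, the glucose transporter SGLT2, read 9.58, 9.26 and 9.67 on the control AKI arrays and 10.10, 10.12 and 10.42 on the GR-deficient AKI arrays and differed by 0.71 ± 0.13, below the healthy control mean of 11.57. The 2 that did not pass were Slc4a4 (0.55) and the organic anion carrier Slco1a1, which read 9.34, 9.91 and 9.76 on the control AKI arrays and 9.43, 9.52 and 9.37 on the GR-deficient AKI arrays with overlap.

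Proximal tubule enzymes were more mixed, with 14 of 28 higher, 2 lower and 12 that did not pass (median 0.51). Miox, the inositol oxygenase, read 10.71, 10.82 and 11.003 on the control AKI arrays and 12.24, 12.50 and 12.66 on the GR-deficient AKI arrays and differed by 1.62 ± 0.12 (limma adjusted p = 1.18e-06). Hao2, a peroxisomal hydroxy acid oxidase, read 8.15, 8.66 and 8.33 on the control AKI arrays and 10.38, 10.67 and 10.59 on the GR-deficient AKI arrays and differed by 2.16 ± 0.18, at the level of the healthy means of 10.26 and 10.67. Ttc36 differed by 1.49 ± 0.13 and the peptidase Cndp1 by 1.41 ± 0.18. Xdh, xanthine dehydrogenase, and Gda, guanine deaminase, which act on purines, were the 2 lower members (-1.01 ± 0.17 and -0.88 ± 0.15). Kap, the androgen-regulated protein of the proximal tubule, read 13.83, 14.07 and 13.95 on the control AKI arrays and 13.94, 13.998 and 13.93 on the GR-deficient AKI arrays, and Cyp2e1 and Cyp4b1 also did not pass (-0.043 and 0.072).

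Transcription factors of tubular identity were higher in 13 of 20 cases and lower in 0 (median 0.47). Hnf4a, a nuclear receptor that sustains the proximal tubule, read 10.76, 10.89 and 11.18 on the control AKI arrays and 11.98, 11.95 and 12.03 on the GR-deficient AKI arrays and differed by 1.04 ± 0.16 (limma adjusted p = 0.000448). Its relative Hnf4g differed by 1.07 ± 0.20, Maf by 0.99 ± 0.14, the orphan receptor Esrrg by 0.82 ± 0.14 and the coactivator Ppargc1a by 0.98 ± 0.19. Pax8, whose promoter drives the Cre, and the intercalated cell factor Foxi1 (-0.082) did not pass.

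Genes of the loop of Henle, distal tubule and collecting duct were higher in 22 of 32 cases and lower in 1 (median 0.68), with 15 higher once GR-deficient AKI replicate 2 is omitted. Kcnj1, the potassium channel ROMK, read 8.78, 9.35 and 9.70 on the control AKI arrays and 10.81, 10.90 and 10.93 on the GR-deficient AKI arrays and differed by 1.61 ± 0.17 (limma adjusted p = 2.34e-05). The GR-deficient values were at the healthy means of 10.89 and 10.99. Atp6v1b1, a proton pump subunit of intercalated cells, read 8.72, 8.55 and 8.87 on the control AKI arrays and 9.91, 9.82 and 10.24 on the GR-deficient AKI arrays and differed by 1.28 ± 0.13. The tight junction genes Cldn10 and Cldn16 differed by 1.78 ± 0.21 and 1.20 ± 0.15, the calcium buffer Calb1 by 1.15 ± 0.14 and the sodium channel subunits Scnn1a, Scnn1b and Scnn1g by 0.54, 0.48 and 0.52. Umod, uromodulin, read 12.70, 13.03 and 13.10 on the control AKI arrays and 13.30, 13.28 and 13.22 on the GR-deficient AKI arrays, and its difference of 0.32 ± 0.12 did not pass. The lower member was Nedd4l, a ubiquitin ligase that removes the sodium channel, at -0.62 ± 0.16, and it lost its call without GR-deficient AKI replicate 3. In healthy cortex 0 of the 109 measured genes of these 4 tubule lists passed in limma. An unadjusted p under 0.05 in limma was reached by 34 of the 109, a larger share than the 10.7% of all genes tested. The median genotype difference in healthy cortex was -0.32 for proximal tubule transport, -0.20 for proximal tubule enzymes and -0.096 for identity factors. It was 0.05 for the loop, distal tubule and collecting duct.

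In the lists of gluconeogenesis, respiration and fat oxidation, the members that passed were higher but for Pdk4. Of gluconeogenesis genes 9 of 13 were higher and 0 lower (median 0.69). G6pc, glucose-6-phosphatase, read 9.97, 9.53 and 10.82 on the control AKI arrays and 11.39, 11.87 and 11.88 on the GR-deficient AKI arrays and differed by 1.61 ± 0.26 (limma adjusted p = 0.000619). Fbp1, fructose bisphosphatase, differed by 0.90 ± 0.12, and Pck1, which encodes the rate-limiting enzyme PEPCK and was also listed among receptor targets, read 11.59, 10.85 and 12.18 on the control AKI arrays and 12.42, 12.45 and 12.68 on the GR-deficient AKI arrays and differed by 0.98 ± 0.27. Of oxidative phosphorylation genes 16 of 21 were higher and 0 lower (median 0.47), and 9 after cyclic loess normalization, where the median was 0.29. Their differences lay between 0.24 and 0.73, led by the complex I subunits Ndufs1 (0.73 ± 0.13) and Ndufs3 (0.55 ± 0.10), and all 21 had groups that did not overlap, as had 32.8% of all genes. Of fatty acid oxidation and ketone genes 10 of 24 were higher and 1 lower (median 0.31). The median was 0.18 after quantile and 0.17 after cyclic loess normalization, where 7 were higher. Fabp3 (1.67 ± 0.21), Acaa2 (1.24 ± 0.16) and Fabp1 (1.30 ± 0.19) were higher and Pdk4 lower, while Cpt1a, the gate of mitochondrial fat import, did not pass (-0.15).

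Glycolysis and glucose uptake genes went both ways, with 2 of 17 higher and 6 lower and a median of 0.0038 that was -0.10 after quantile and -0.21 after cyclic loess normalization. Only 1 was higher under each of these, and 4 were lower without control AKI replicate 2. Slc2a1, the glucose transporter GLUT1, read 11.26, 10.97 and 10.82 on the control AKI arrays and 10.30, 10.27 and 10.40 on the GR-deficient AKI arrays and differed by -0.69 ± 0.12 (limma adjusted p = 0.00071). The hexokinase Hk2, the regulator Pfkfb3 and the pyruvate kinase Pkm were lower (-0.62, -0.65 and -0.52), as was the monocarboxylate carrier Slc16a1 (-0.99). Pfkm, the phosphofructokinase named for muscle, was higher by 0.81 ± 0.12.

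Circadian clock genes went both ways, with 6 of 17 higher and 3 lower (median -0.10). The output factors Hlf, Tef and Dbp, which share a binding site, were higher. Hlf read 7.81, 7.28 and 8.03 on the control AKI arrays and 9.32, 9.50 and 9.59 on the GR-deficient AKI arrays and differed by 1.77 ± 0.16 (limma adjusted p = 5.60e-06), Tef differed by 1.20 ± 0.14 and Dbp by 1.14 ± 0.20. Per2 and Per3 were higher (0.74 ± 0.14 and 0.75 ± 0.13), whereas Per1, a receptor target, was lower. Nfil3, a repressor that competes with the output factors, was lower (-1.31 ± 0.32), as was Cry1 (-0.46 ± 0.12). Arntl and Clock, the core activators, did not pass (-0.43 and -0.12). Times of dissection were not given in the labels used here.

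Cytokines, chemokines and adhesion molecules gave 5 lower and 2 higher of 24 (median -0.07), and 1 higher without control AKI replicate 2. Cxcl1, a chemokine for neutrophils, read 8.48, 8.90 and 8.49 on the control AKI arrays and 6.95, 6.53 and 6.70 on the GR-deficient AKI arrays and differed by -1.90 ± 0.14 (limma adjusted p = 9.52e-07). The GR-deficient values stood at the healthy means of 6.54 and 6.59. Il34, a ligand of the macrophage receptor CSF1R that tubule cells make, read 10.01, 10.19 and 10.35 on the control AKI arrays and 9.17, 8.81 and 8.77 on the GR-deficient AKI arrays and differed by -1.27 ± 0.18. Cxcl2 and Il1b were lower (-0.99 and -0.66), and Cxcl12 was higher by 1.16 ± 0.15. Tnf, Ccl2 and Icam1, genes that NF-kappaB drives, did not pass (-0.093, -0.23 and 0.10).

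Markers of neutrophils moved with these genes. Of 17, 8 were lower and 0 higher (median -0.33), and the mean of the list ran from 6.37 to 6.60 on the control AKI arrays, from 5.80 to 5.97 on the GR-deficient AKI arrays and from 5.44 to 5.71 on the healthy arrays. S100a9, a calgranulin, read 8.26, 8.89 and 8.21 on the control AKI arrays and 7.47, 6.87 and 7.24 on the GR-deficient AKI arrays and differed by -1.26 ± 0.18 (limma adjusted p = 0.000217). Retnlg and the chemokine receptor Cxcr2 differed by -1.36 ± 0.19 and -1.17 ± 0.18. Granule genes of immature neutrophils and the surface marker Ly6g did not pass, with Mpo at -0.23, Ltf at -0.19 and Ly6g at -0.031. Lcn2 and Il1r2 are also counted here. What these cells contribute to the lower acute phase, cytokine and stress genes was not tested.

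Among monocyte and macrophage genes 3 of 19 were lower and 2 higher (median -0.0047, 0.05 after quantile and 0.07 after cyclic loess normalization), and 1 was higher without control AKI replicate 1. Cd14, a receptor for bacterial lipid that injured epithelium also makes, and Cd68, a lysosomal protein, were lower (-2.11 ± 0.23 and -1.70 ± 0.17), as was Itgam (-0.87 ± 0.15). Csf1r and Cd74 were higher by 0.59 ± 0.12 and 0.86 ± 0.25. The macrophage marker Adgre1 read 5.86, 6.17 and 6.44 on the control AKI arrays and 6.42, 6.32 and 6.16 on the GR-deficient AKI arrays, and the complement genes C1qa, C1qb and C1qc also did not pass. Lymphocyte genes gave 0 calls of 18 in limma at the adjusted threshold and 1 at an unadjusted p under 0.05, which 28.1% of all genes reached, with the median at 0.0042, and the gene with the smallest p, Nkg7, differed by 0.32 ± 0.14. With quantile or cyclic loess normalization, with array weights or without control AKI replicate 1, Nkg7 passed.

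Markers of vessels and glomeruli went both ways, and those of stroma that passed were lower. Of endothelial genes 4 of 18 were lower and 3 higher (median -0.13), and 5 were higher without control AKI replicate 3. Nos3, the endothelial nitric oxide synthase, was lower (-0.79 ± 0.13) and the angiopoietin receptor Tek higher by 0.75 ± 0.14, as was Ehd3 (1.11 ± 0.21), a gene of the glomerular endothelium. Of fibroblast, mural and matrix genes 4 of 19 were lower and 0 higher (median 0.12), which were Timp1, Col4a1 (-0.62 ± 0.14), Col4a2 (-0.58 ± 0.15) and Col3a1 (-0.49 ± 0.11). Col4a2 did not pass without control AKI replicate 2 or GR-deficient AKI replicate 3. Of podocyte genes 2 of 9 were higher, Clic5 (0.79 ± 0.19) and Podxl (0.43 ± 0.13), and Synpo was lower (-0.40 ± 0.11). Podxl lost its call in 5 and Synpo in 3 of the fits that left out 1 array. Nphs1 and Wt1, defining podocyte genes, did not pass (0.057 and -0.049).

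Proliferation genes were higher in 7 of 22 cases and lower in 0 (median 0.20), and in 3 cases without GR-deficient AKI replicate 1. Mcm6, a subunit of the replication helicase, read 7.31, 7.76 and 7.66 on the control AKI arrays and 8.40, 8.22 and 8.34 on the GR-deficient AKI arrays and differed by 0.74 ± 0.13 (limma adjusted p = 0.00113), and Tyms, thymidylate synthase, differed by 0.76 ± 0.16. Mki67 read 6.11, 5.86 and 5.45 on the control AKI arrays and 6.06, 6.78 and 6.12 on the GR-deficient AKI arrays with overlap and did not pass, nor did the mitotic genes Plk1 and Aurkb (0.11 and 0.0067). Interferon response genes were higher in 2 of 17 cases, Rsad2 (1.05 ± 0.17) and Ifit3 (0.82 ± 0.24), with a median of 0.22. Ifit3 did not pass without control AKI replicate 1, and 4 members were higher without control AKI replicate 3. Genes of adrenal gland, fat and skeletal muscle gave 1 call for each list. These were Star of 10 adrenal genes (-0.46 ± 0.12), Lpl of 9 adipocyte genes (0.76 ± 0.22) and Pvalb of 12 skeletal muscle genes (0.97 ± 0.25), the last also a gene of the distal convoluted tubule. Each of these 3 lost its call in some fits without 1 array. The defining genes Cyp11b1, Adipoq and Ckm did not pass (0.012, 0.36 and -0.031). Of the 3 measured red blood cell genes, Slc4a1, which intercalated cells share, was higher (1.05 ± 0.13), and Alas2 did not pass (0.22).

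Few genes passed between the same genotypes without injury. In healthy cortex 29 genes passed (0.145% of those tested), 7 higher and 22 lower. That count is sensitive to the arrays and settings used. It was 10 without control healthy replicate 1 and 115 without GR-deficient healthy replicate 3, and it was 73 without control AKI replicate 1, which enters through the shared estimate of spread. The difference between the comparisons was tested directly by the interaction, which 2283 genes passed (11.5% of those tested, 7.39% with a value above 0 and 4.06% below 0). Of the 3460 genes called in AKI, 1973 (57%) also passed the interaction, so their genotype difference was not the same with and without injury. The interaction contains the difference in AKI, so genes called in AKI were more likely to pass it.

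The healthy and the injured comparison share no array, but both use the 1 estimate of the spread from all 12 arrays, so their calls are not independent. Over all genes tested, 17.4% passed in AKI and 0.145% in healthy mice. Passing in both were 14 genes, which is 0.405% of the calls in AKI and 48.3% of those in healthy mice. Of these, 6 were lower in both, 5 were higher in both and 3 changed direction. Of the 29 calls in healthy mice, 12 were kept in a fit to only the groups compared and 8 without control healthy replicate 1. Which of the 14 genes kept their healthy call was not examined. Lower in both were Nr3c1, Hsd11b1, Akr1c18, Gusb, Slc41a2 and Guca2b. Hsd11b1 differed by -1.23 in AKI and -1.21 in healthy mice. Akr1c18 differed by -1.29 in AKI and by -2.20 in healthy mice. Guca2b, which encodes uroguanylin, a peptide that promotes salt excretion, read 12.20, 12.32 and 12.45 on the control AKI arrays and 11.92, 11.98 and 12.06 on the GR-deficient AKI arrays, and its difference was -0.34 in AKI and -0.55 in healthy mice. Gusb, a lysosomal glucuronidase, differed by -0.47 and -0.80, and Slc41a2, a magnesium transporter, by -0.44 and -0.85. The last lost its call in AKI in 9 of 12 fits that left out 1 array, Guca2b in 4 and Gusb in 1.

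Higher in both were Rdh16f2, Pigr, Clic6, Hpgd and Gsta4. Rdh16f2, a retinol dehydrogenase family member, read 9.24, 9.71 and 9.998 on the control AKI arrays and 11.65, 11.53 and 11.78 on the GR-deficient AKI arrays and differed by 2.003 in AKI and 1.65 in healthy mice. Pigr read 9.72, 9.80 and 9.86 on the control AKI arrays and 11.40, 11.34 and 11.57 on the GR-deficient AKI arrays and differed by 1.64 and 1.27, and Clic6, a chloride channel family member, by 1.60 and 1.12. Hpgd, which inactivates prostaglandins, read 6.74, 7.10 and 7.08 on the control AKI arrays and 8.60, 8.46 and 8.47 on the GR-deficient AKI arrays, and its difference of 1.54 in AKI exceeded that of 0.77 in healthy mice, with an interaction of 0.77 (limma adjusted p = 0.0166). Gsta4 differed by 0.69 and 0.85.

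The genes that changed direction were Dbp, Map2k6 and Stk32a. In healthy mice their adjusted p-values in limma were 0.0288, 0.0442 and 0.0233. Dbp, the clock output factor, had means of 11.08 in healthy control, 9.89 in healthy GR-deficient, 8.39 in control AKI and 9.53 in GR-deficient AKI. It was thus lower in GR-deficient cortex without injury (-1.19) and higher with injury (1.14), an interaction of 2.33 (limma adjusted p = 0.000158). Map2k6, a kinase upstream of p38, had means of 9.14 in healthy control, 8.40 in healthy GR-deficient, 6.94 in control AKI and 8.17 in GR-deficient AKI, and its interaction was 1.97 (limma adjusted p = 4.10e-05). Stk32a, a serine/threonine kinase, had means of 6.58 in healthy control, 7.50 in healthy GR-deficient, 7.98 in control AKI and 7.52 in GR-deficient AKI, and its call in AKI was lost in 8 of 12 fits that left out 1 array.

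**Figure D5:**
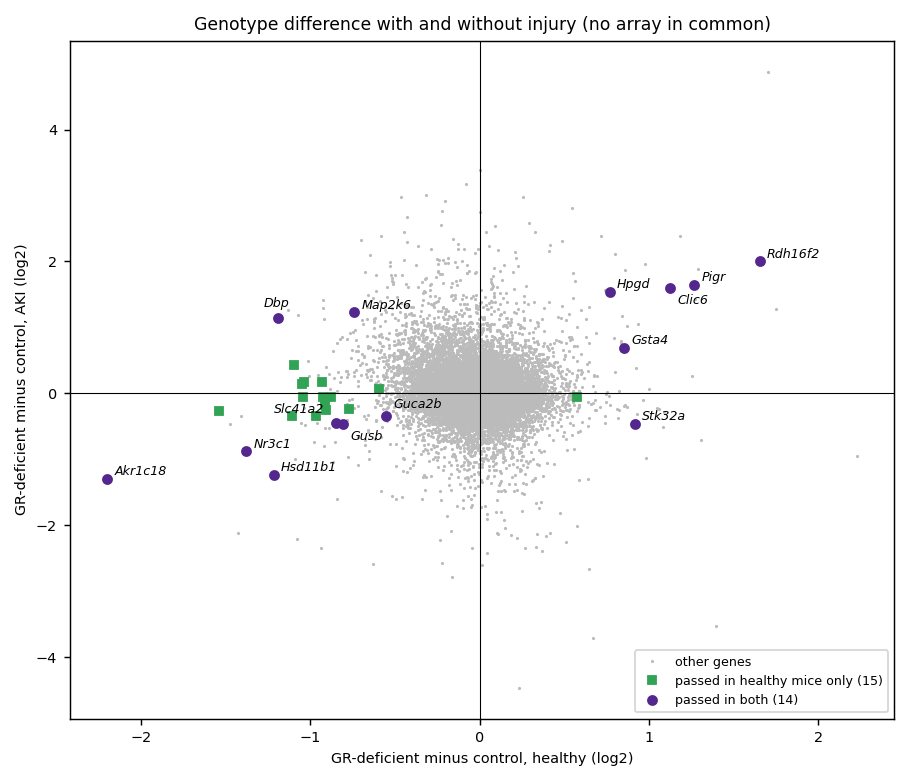
Each point is a gene, with the GR-deficient minus control difference in healthy cortex on the horizontal axis and in AKI on the vertical axis (both log2); the comparisons share no array. The 14 genes that passed in both are named, 11 of them with the same sign, while several genes with large differences in AKI, such as Krt20 (-4.46) and Gatm (3.18), lie near 0 on the horizontal axis.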

How the data were processed

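Gene expression was measured on Affymetrix arrays in 12 samples, 3 in each of 4 groups. This account is about the 6 AKI samples, and its p-values come from a fit to all 12. The authors deposited log2 values per probe set, normalized with RMA (background correction, quantile normalization and probe summary) per the submitters' processing notes, which name affy and oligo. Their versions were not given in the sources used here. The method makes array distributions alike, which can shift genes when many change one way. Of 35556 probe sets, 21789 had exactly 1 gene symbol, and the one with the highest mean stood for each of 19938 genes. The number of arrays limits the precision.

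Group means were fitted with limma 3.58.1 in R 4.3.3 (lmFit, eBayes, 8 residual and 6.26 prior degrees of freedom, two-sided, Benjamini-Hochberg over 19938 genes, threshold 0.05) to all 12 arrays, which share 1 estimate of the spread, and differences are given ± SE. The fit was tested on simulated data with independent normal noise, in which 50 of 19938 genes were changed at each size. It recovered 32% of genes changed by 0.5, 82% by 1 and 100% by 2 (log2), with 6 false among 163 calls. Far fewer genes were changed there than passed in AKI, which alters the cut on p, so these shares do not give the recovery in the data.

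Named genes were Nr3c1, the 15 largest differences each way without overlap and the genes called in both comparisons. Up to 4 members with the smallest p of each list were named too. Except among list members, predicted genes and small RNA genes were left out, as were immunoglobulin, T cell receptor, olfactory and vomeronasal genes. The arrays, members and lists were chosen with earlier results of these data known. Replicate numbers were not taken to pair samples. Deviations of same-numbered AKI samples correlated at -0.17, 0.25 and -0.33, and with 3 arrays a group such values cannot exclude a pairing. Alternatives were other normalizations, filters, weights, priors, probe choices, a block on replicate number and leaving out each array. Motifs were counted in RefSeq promoter windows.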

Additional observations from a re-analysis of the deposited data

Results flagged for a closer look

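The genotype difference in AKI differed from that in healthy cortex for many of the genes described, by the interaction in limma at an adjusted p of 0.05. Most of these genes were chosen for their difference in AKI, which is part of the interaction. Passing was therefore favoured in advance, and the values describe the genes without being a separate test of them. The values below are the difference in AKI minus the difference in healthy mice, on the log2 scale.

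Among genes lower in GR-deficient AKI, it was -4.92 for Fgg, -4.7 for Krt20, -4.38 for Fgb and -3.3 for Fga. It was -2.76 for Lrg1, -2.75 for Hspa1a, -2.67 for Chil3, -2.63 for Plin2, -2.62 for Havcr1 and -2.62 for Plk3. Smaller values were those of Atf3 (-2.46), Sprr2f (-2.34), Slc7a11 (-2.3), Saa1 (-1.96), Ttpa (-1.4) and Stk32a (-1.37).

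Among genes higher in GR-deficient AKI, it was 3.43 for Hsd3b2, 3.39 for Hsd3b3, 3.32 for Sfrp1, 3.26 for Gatm, 3.18 for Slc7a12, 3.11 for Sucnr1 and 3.09 for Acmsd. It was 2.79 for Slco4c1, 2.75 for Egf, 2.72 for Ces1g, 2.45 for Nat8f1, 2.41 for Slc12a1 and 2.33 for Dbp. It was 2.29 for Fabp7, 2.26 for Kynu, 2.11 for Slc10a2, 1.97 for Map2k6 and 0.77 for Hpgd. For Nr3c1, lower in both comparisons, it was 0.5.

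The same test was passed by members of most lists, and by 11.5% of all genes, 7.39% with a value above 0 and 4.06% below 0. Below 0 in each case were 17 of 22 tubular injury markers, 11 of 23 keratins and other cytoskeletal genes, 10 of 20 genes of the interleukin 6 list, 15 of 21 AP-1 and immediate early factors, 5 of 20 heme and antioxidant genes, 6 of 13 heat shock chaperones, 7 of 17 p53 targets, 7 of 17 neutrophil and 4 of 19 fibroblast and matrix genes. Above 0 in each case were 6 of 13 steroid handling genes, 27 of 29 transport genes of the proximal tubule, 6 of 20 identity factors, 15 of 32 genes of the loop, distal tubule and collecting duct, 7 of 13 gluconeogenesis, 9 of 21 oxidative phosphorylation and 4 of 22 proliferation genes.

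Other lists held both signs. Of 23 fibrinogen and acute phase genes 10 passed (8 below 0), of 23 unfolded protein and integrated stress genes 13 (11 below 0), of 23 cell death genes 6 (5 below 0) and of 30 receptor targets 15 (11 below 0). Of 28 enzymes of the proximal tubule 15 passed (14 above 0), of 24 fatty acid oxidation genes 6 (5 above 0) and of 17 clock genes 8 (6 above 0). Glycolysis gave 6 of 17 and endothelium 6 of 18, each with 3 above 0, cytokines 5 of 24 (2 above 0), macrophages 3 of 19 (1 above 0) and podocytes 2 of 9 (1 above 0). Single genes passed of 17 interferon, 10 adrenal and 3 red blood cell genes, which is 1 in each list.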

How the results depend on the processing

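Of 143 named genes called in AKI, 130 kept their call and direction under every alternative they were tested in, and 0 reversed. For 112 of these that was all 20 alternatives, 12 of which left out 1 array, and 18 were not tested among genes at or above the median mean. The 13 others lost it under at least 1. The 3460 calls in AKI became 7000 with array weights, and the interaction count of 2283 became 4905. Fitted to only the groups compared, 2710 genes passed in AKI, and 76.2% of the 3460 calls were kept. The healthy count of 29 became 301 with array weights, 14 with only the groups compared, 61 after cyclic loess, 74 among genes at or above the median mean and 71 with a trended robust prior. Leaving out 1 array gave 2414 to 3906 calls in AKI and 10 to 115 in healthy mice. Array weights gave control AKI replicate 1 a weight of 0.182 and replicate 2 one of 5.09. With the replicate number as a block, which the pairing check did not bear out, 3104 genes passed in AKI, 25 in healthy mice and 2013 in the interaction. Of the calls in AKI, 57.7% were higher, and 51.5% after quantile and 53.6% after cyclic loess normalization. The causes were not tested. With 3 arrays a group, differences near 0.5 on the log2 scale were often missed in the simulated data, where far fewer genes changed than passed in AKI. Genes that did not pass may still differ.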

Other observations

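Further genes lay outside the range of the other 9 arrays in GR-deficient AKI and were picked after their values were seen. Ugt2b34, a glucuronosyltransferase, read 7.76, 7.81 and 8.51 on the control AKI arrays and 9.93, 9.24 and 9.25 on the GR-deficient AKI arrays, with healthy means of 8.34 and 8.19. Ces2e, a carboxylesterase like Ces1g, read 7.20, 7.90 and 8.31 on the control AKI arrays and 9.21, 9.01 and 8.95 on the GR-deficient AKI arrays, with healthy means of 7.52 and 8.12. Slc51a, a subunit of the basolateral exporter of bile acids and steroids, read 8.43, 8.66 and 9.19 on the control AKI arrays and 10.55, 10.71 and 10.94 on the GR-deficient AKI arrays, with healthy means of 9.87 and 9.69. Prim1, the small subunit of the DNA primase, read 6.08, 6.69 and 6.87 on the control AKI arrays and 7.56, 7.68 and 7.62 on the GR-deficient AKI arrays, with healthy means of 6.74 and 6.78. On the low side, Slc22a7, an organic anion transporter, read 9.39, 9.75 and 9.57 on the control AKI arrays and 8.93, 8.68 and 8.11 on the GR-deficient AKI arrays, with healthy means of 10.60 and 9.51.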
